A study of Mus musculus with 16 samples.

Results

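The 200 most abundant long noncoding RNAs (lncRNAs) of cultured mouse germ cells are described here, with their levels, small RNA genes, neighbours and start sequences. They were chosen by their mean normalized count, the authors' average over all libraries, among the rows of the deposited table that carry the locus type lncRNA. The table lists 54432 genes, of which 10041 were lncRNAs. The 8 imprinted transcripts H19, Meg3, Rian, Mirg, Airn, Nespas, Kcnq1ot1 and Peg13 were left out, and the 200 with the highest mean were taken from the remainder. Because the mean chose the members, their levels are given as a description with no test.

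The cultures came from THY-1+ germ cells of male C57 LacZ mouse pups, a population enriched for spermatogonial stem cells. They were grown on STO feeders, a mouse fibroblast line. The labels list 16 samples in 4 groups of 4: 1 ng/mL FGF9, 20 ng/mL FGF9, 1 ng/mL FGF2, and the control without FGF. GDNF (20 ng/mL) and its receptor GFRα1 (150 ng/mL) were given to all groups, control included, and all cells were between passages 9 and 12 and had been expanded with 1 ng/mL FGF2 beforehand. PolyA RNA was sequenced in stranded libraries, and the table's title points to fewer libraries than the labels list. The only level used is a single mean per gene pooled over the 4 treatments, so no value per library, standard deviation or n stands beside any level, the depth of each library is not in the table (the methods of the study state only an average over samples), and treatments were not compared here.

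LncRNAs are transcripts without a recognised protein product. Some act as RNAs, as Malat1 and Neat1 do in nuclear speckles and paraspeckles. Others are known mainly for what is cut from them, such as small nucleolar RNAs (snoRNAs), which guide the chemical modification of ribosomal RNA, or microRNAs (miRNAs). Many lncRNAs start beside a protein coding gene and are transcribed away from it, from the same open stretch of DNA.

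Start sequences are shown first for the hosts of snoRNAs and for the most abundant other members that have a RefSeq start region, because a CpG-rich start was common among the 106 members with such a region, although the rule used no sequence. Each line holds 60 bases of GRCm38.p6 from RefSeq, 5′ to 3′ on the transcribed strand, with the annotated first base at position 31 and every CpG dinucleotide in capitals.
Malat1: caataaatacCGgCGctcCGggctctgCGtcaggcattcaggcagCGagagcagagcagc
1700020I14Rik: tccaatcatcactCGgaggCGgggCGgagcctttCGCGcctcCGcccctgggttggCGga
AI506816: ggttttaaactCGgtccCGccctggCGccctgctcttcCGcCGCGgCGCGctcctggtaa
Gas5: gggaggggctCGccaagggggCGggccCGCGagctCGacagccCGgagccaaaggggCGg
Snhg1: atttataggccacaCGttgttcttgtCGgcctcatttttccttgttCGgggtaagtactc
Snhg17: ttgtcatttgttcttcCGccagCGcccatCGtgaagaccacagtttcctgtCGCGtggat
1110038B12Rik: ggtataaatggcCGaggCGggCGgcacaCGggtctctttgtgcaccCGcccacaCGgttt
Snhg5: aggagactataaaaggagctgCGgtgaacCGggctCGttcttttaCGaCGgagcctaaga
Zfas1: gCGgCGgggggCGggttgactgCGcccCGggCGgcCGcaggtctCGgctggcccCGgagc
1810032O08Rik: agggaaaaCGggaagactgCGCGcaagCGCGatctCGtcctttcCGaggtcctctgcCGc

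Among these 10 windows, Zfas1 held the most CpGs (9) and Snhg1 the fewest (3). The Malat1 window lies at chr19:5802643-5802702 on the minus strand, that of Gas5 at chr1:161034571-161034630 on the plus strand, that of Snhg1 at chr19:8723457-8723516 on the plus strand and that of Snhg5 at chr9:88522868-88522927 on the minus strand. Each spans the upstream flank and the beginning of the first exon of the RefSeq model.

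Mature miRNAs encoded inside 3 members are shown because their seeds tie different hairpins of a host together. Bases 2 to 8, the seed that pairs with targets, are in capitals, and the sequences are from RefSeq.
mmu-miR-17-5p: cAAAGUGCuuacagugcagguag
mmu-miR-20a-5p: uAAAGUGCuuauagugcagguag
mmu-miR-18a-5p: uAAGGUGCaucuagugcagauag
mmu-miR-19a-3p: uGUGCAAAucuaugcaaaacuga
mmu-miR-19b-3p: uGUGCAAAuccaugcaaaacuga
mmu-miR-92a-3p: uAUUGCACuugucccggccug
mmu-miR-15a-5p: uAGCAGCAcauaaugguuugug
mmu-miR-16-5p: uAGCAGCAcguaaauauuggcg
mmu-let-7a-5p: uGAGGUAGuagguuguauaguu
mmu-let-7d-5p: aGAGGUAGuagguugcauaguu
mmu-let-7f-5p: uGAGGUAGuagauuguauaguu

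Within Mir17hg, the host of the miR-17-92 cluster, miR-17-5p and miR-20a-5p share the seed AAAGUGC, and miR-19a-3p and miR-19b-3p share GUGCAAA. MiR-15a-5p and miR-16-5p of Dleu2 share AGCAGCA. The 3 let-7 miRNAs inside 6720427I07Rik share GAGGUAG. The libraries measured the polyadenylated host transcripts, not these mature miRNAs.

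The 200 lncRNAs were 2.88% of the lncRNA rows with a mean above 0 and held 76.6% of the summed lncRNA mean normalized counts. LncRNAs of the whole table made up 1.07% of all normalized counts, against 96.1% for protein coding genes. Member means ran between 162 and 90640, with a median of 308 and quartiles of 205 and 603. The other 6736 lncRNAs with a mean above 0 had a median mean of 1.31. At the limit of the set no step was seen. The last 5 members were Gm47469 (166), Gm38190 (164), C4a (164), D030028A08Rik (162) and BC051226 (161.945), and the first 5 genes outside were Gm10845 (161.940), Tslrn1 (161), 3110056K07Rik (160.4), 9530026P05Rik (159) and Gm47808 (159).

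**Figure D1:**
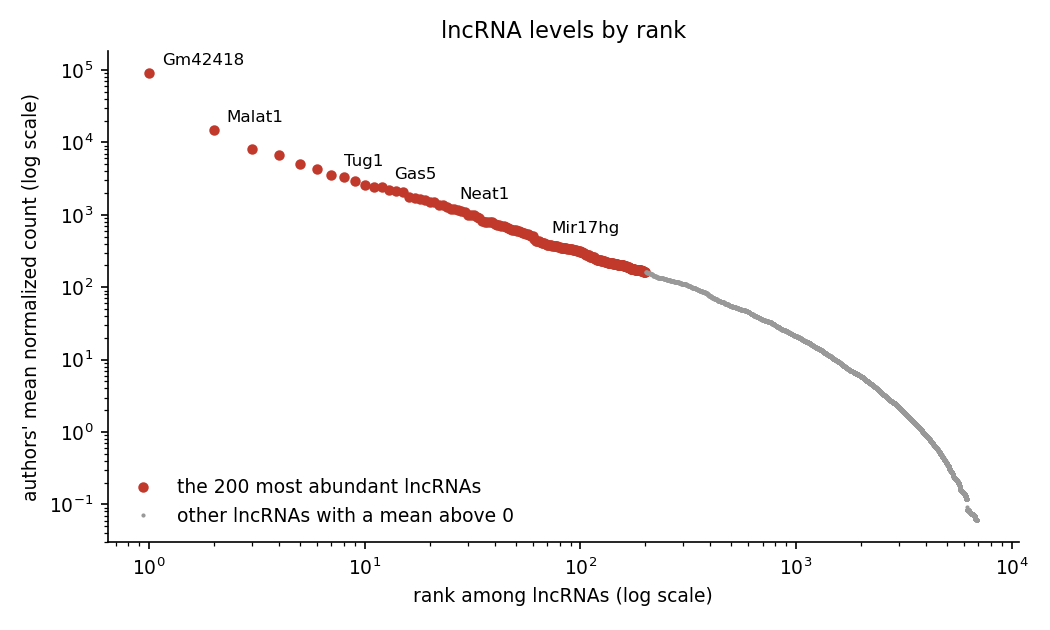
Authors' mean normalized count (y, log scale) against rank among lncRNAs (x, log scale), 1 point per gene, for the 200 members and the other lncRNAs with a mean above 0. Gm42418, at 90640, stands apart from Malat1 at 14661, and the curve passes the limit of the set near 162 without a step.

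The counts were concentrated in few genes. The 10 highest members held 61.7% of the members' summed counts and the 20 highest 70.2%, while 29 of the 200 had a mean of at least 1000. Gm42418 alone, a single-exon transcript at chr17:39846958-39848788 (GRCm38, plus strand), had a mean of 90640, which was 30.2% of all lncRNA counts and the 10th highest mean of the whole table. Its exon lies for 99.5% of its length opposite CT010467.1, a gene annotated as rRNA on the minus strand, which had a mean of 1493. Gm26917, whose mean was 8123, lies immediately next to it at chr17:39843013-39846341 on the same strand. Together both held 32.9% of lncRNA counts. Without this pair, the remaining members held 65.2% of the remaining lncRNA counts and lncRNAs made up 0.717% of all normalized counts. The part of ribosomal RNA in these levels was not tested.

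Malat1, the nuclear speckle RNA, followed with a mean of 14661. Gm47283, on chromosome Y, had 6643. It is listed as a lncRNA in the table and as protein coding in GENCODE release M21, and 46.8% of its 31-base words (31-mers) were also found in transcripts of another gene, with Gm21887 as the main partner. The fifth was 2900097C17Rik at 5083, which RefSeq lists with the synonym Norad, an RNA that binds Pumilio proteins and preserves chromosome number. Then came 1700020I14Rik (4274), named Oip5os1 or Cyrano in RefSeq and known for driving the decay of miR-7, Tug1 (3575), an RNA whose deletion impairs male fertility in mice, B230354K17Rik (3346), AI506816 (2931) and Gm37494 (2582). Ranks 11 to 20 were 1700001L05Rik (2444), Gas5 (2429), Zswim6 (2203), Gm38246 (2100.2), Snhg14 (2069), AU020206 (1782), Trerf1 (1706), Snhg1 (1662), Gm26905 (1609) and Snhg17 (1504). Snhg1, Gas5, Snhg14 and Snhg17 in this group are hosts of snoRNAs. Zswim6 and Trerf1 carry symbols of protein coding genes but are typed as processed transcripts in GENCODE M21. The same holds for some members further down, among them Tctn2 (912) and Ifi30 (522), so not every member is a plain noncoding gene.

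All 200 IDs were found in GENCODE M21, where 94 are typed lincRNA, 55 processed transcript, 33 antisense, 11 bidirectional promoter lncRNA, 6 sense intronic and 1 protein coding. By symbol, 94 were predicted genes (Gm and a number), 62 were RIKEN clones and 44 had other names.

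The means and ranks above follow the rule and are not corrected for length. Since a longer transcript gives more fragments, levels were also divided by the kilobases of exon. The summed exon length of the members, each base counted once over all annotated transcripts, ran between 165 bases in Gm47551 and 93147 bases in AC160336.1. The median mean per kilobase was 113, beside 1.11 for the other lncRNAs with a mean above 0, 16.7 for those with a mean of at least 10 and 157 for protein coding genes filtered in that way. Of the 200, 73 were at or above that protein coding median. Gm42418 was highest per kilobase too, with 49503. Gm47551 (5947), Gm47283 (5910) and the 384-base Gm10076 (3101) followed it, and Malat1 had 2099.5. Transcripts of other genes also held 92.6% of the 31-mers of Gm47551, 46.8% of those of Gm47283 and 84.2% of those of Gm10076. How much of these 3 levels belongs to the named genes was not tested. Bc1, a short cytoplasmic RNA known from neurons as a repressor of translation, had a mean of 306 but 1821 per kilobase. At the other end, the lowest member had 3.24 per kilobase, and AC160336.1, next to last, had 11.7 despite a mean of 1089. Ranking by the mean per kilobase kept 124 of the 200 genes.

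**Figure D2:**
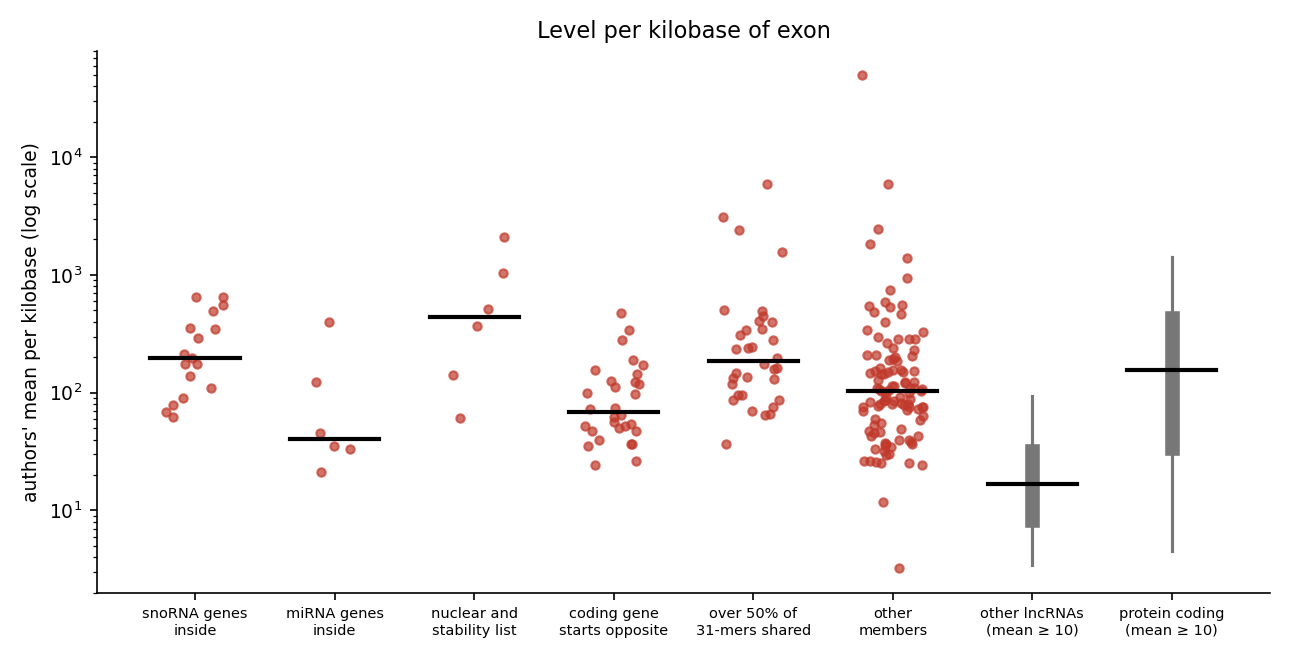
Authors' mean per kilobase of exon (y, log scale) for the 200 lncRNAs, 1 point per gene, each placed in the first group from the left that takes it, with black bars for medians. The 2 groups at the right show other lncRNAs and protein coding genes with a mean of at least 10 as medians with the middle 50% (thick bars) and the 5th to 95th percentiles (thin lines). Members with snoRNA genes inside had a median of 196.4, and those with a coding gene starting opposite had 68.7.

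Hosts of snoRNAs, whose introns release the small RNAs, are described first by role. Of 21 host transcripts on a list of known hosts, 20 were found by symbol or RefSeq synonym, 19 of them as lncRNAs, and 13 were members. They were Gas5, Snhg14, Snhg1, Snhg17, Snhg5 (601), Zfas1 (409), Snhg6 (336), Snhg4 (322), 1810032O08Rik (304), which RefSeq names Snhg16, Snhg15 (239), Snhg12 (216), Snhg3 (194) and Snhg20 (174). Listed host lncRNAs outside the set ran down to Snhg9 at 6.62, and Snhg8, at 152, lay closest to the limit. Snhg11 had a higher mean than any listed host in the set, 2896, but is typed as protein coding, so the rule could not take it. Dancr had 51.9. The listed host lncRNAs held 3.60% of all lncRNA counts, or 5.16% with Gm42418 left out of the total.

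By annotation, 17 members had at least 1 snoRNA gene inside on the same strand. That is 8.5% of the members, beside 0.579% (39) of the other lncRNAs with a mean above 0 and 1.37% (18) of those with a mean of at least 10. Besides the 13 of the list these were AI506816, 1110038B12Rik (640), 2700038G22Rik (278.5) and 2410006H16Rik (228). Snhg14, which runs through the Snord115 and Snord116 clusters opposite Ube3a, had 208 snoRNA genes inside, and the other 16 had 48 together. Gas5 held 10, Snhg1 held 8 and Snhg12 held 5. The gene counted in AI506816 is typed as a snoRNA although its name is Mir3096, and so is Mir5117 among the 10 in Gas5.

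Per kilobase, the 17 hosts had a median of 196.4, beside 109.6 for the 183 members without a snoRNA gene. AI506816 was highest at 654, then Gas5 at 646 and Snhg1 at 559.9. The 462-base 2410006H16Rik, which holds Snord49a, Snord49b and Snord65, had 494, although its mean of 228 put it far down the ranking. Snhg20 was lowest at 62.4. 2 hosts on chromosome 5, AI506816 and 2700038G22Rik, had similar start regions, with 232 of 299 aligned bases identical (77.6%) at a shift of 1 base.

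All 12 transcripts listed for nuclear bodies, X inactivation and chromosome stability were found by symbol or RefSeq synonym, and 7 were members. Per kilobase Malat1 was highest at 2099.5, followed by 2900097C17Rik at 1034, 1700020I14Rik at 515, Tug1 at 367, Firre at 140.3, Neat1 at 60.9 and Ftx at 21.2. Firre anchors the inactive X in the nucleus and Ftx is a positive regulator of Xist. Xist itself, which coats the inactive X of female cells, had a mean of 100.2 (5.58 per kilobase) and ranked 328 among lncRNAs, outside the set, and its antisense Tsix had 0.434. Neat1, the scaffold of paraspeckles, had a mean of 1266 over a summed exon length of 20771 bases. That length covers 4 annotated transcripts, and which of them gave the counts was not tested.

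Of 17 listed miRNA hosts 14 were found and 2 were members, namely Mir17hg with a mean of 433 and Dleu2 with 376. By annotation 8 members held a miRNA gene (4%, beside 1.34% of the other lncRNAs with a mean above 0 and 2.06% of those with a mean of at least 10). Mir17hg held 6, Dleu2 held Mir15a and Mir16-1, and 6720427I07Rik, at 197, held the Mirlet7a-1, Mirlet7f-1 and Mirlet7d genes whose products are shown above. Ftx (216.5) held Mir374b and Mir421, and Gm17494 (379.7) held Mir760. Zswim6 held 1 gene typed as a miRNA, Gm22118. Snhg4 and Snhg20 held both kinds of small RNA gene.

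The remaining lists had no member. The 10 lncRNAs of the Hox clusters, which pattern the body axis, had a median mean of 1.07, and the highest was Hoxb3os at 139 (33.2 per kilobase). Of 23 transcripts found from a list of pluripotency-associated lncRNAs, most of them the Platr genes of embryonic stem cells, 11 had a mean under 10. Platr14, at 135 (85.3 per kilobase), was the highest of the 20 typed as lncRNAs. Platr25 (645), Tunar (268) and Platr17 (26.4) are typed as protein coding, so the rule could not take them. The imprinted transcripts left out by the rule ran between 14.3 in Mirg and 4969 in H19. With them kept in the ranking, all but 4 of the 200 members stayed. The 4 that entered were H19, Kcnq1ot1 (924), Rian (386) and Peg13 (191), whereas Meg3 (148), Nespas (103) and Airn (46.8) were under the limit.

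The label of the cells was checked on protein coding markers, given as mean per kilobase. The germ cell genes Dazl (12555) and Ddx4 (3827) and the spermatogonial genes Etv5 (3107), Ret (2547), Gfra1 (2125) and Zbtb16 (1819) lay far above the protein coding median of 157. The 8 germ cell genes ran between 78.8 in Dppa3 and 12555 in Dazl, with Sohlh1 at 309. All 10 markers of undifferentiated spermatogonia were present, with a range of 165 to 3107. The 12 fibroblast markers ran between 0.0602 in Lum and 909 in Fn1, with a median of 68.5 and Col1a1 at 359.7. The 9 Sertoli and Leydig markers had a median of 2.45, with Sox9 highest at 103, then Wt1 at 44.1 and Cldn11 at 21.9, and Hsd3b1 listed at 0. In such bulk RNA, fewer cells of a type and less RNA per cell cannot be told apart, and which share of any lncRNA came from feeder or other somatic cells was not tested.

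Gene structure was set beside that of the other lncRNAs. The median summed exon length of the members was 3236 bases, beside 1247 bases in the other lncRNAs with a mean above 0, 1911 in those with a mean of at least 10 and 4441 in protein coding genes. The mean itself grows with length, so the rule favours long transcripts, and over the 200 genes the Spearman correlation of length with the mean was 0.16. That of length with the mean per kilobase was -0.60. Because length divides this measure and the members were cut by the mean, it places shorter members higher largely by construction. The members had a median of 4 exons in the transcript with the most, beside 3 in both sets of other lncRNAs and 9 in protein coding genes. Single-exon genes made up 11.5% (23) of the members, 9.24% of the other lncRNAs with a mean above 0, 15.3% of those with a mean of at least 10 and 2.29% of protein coding genes.

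RefSeq start regions, 250 bases before and 50 after the first base, were matched for 106 of the 200 members. The ratio of observed to expected CpG, which is near 1 where CpGs have not been lost by methylation and decay, had a median of 0.79 in the members. It was 0.34 in 2173 other lncRNAs with a mean above 0, 0.64 in 514 of those with a mean of at least 10, and 0.75 in 11410 protein coding genes. The ratio was at least 0.6 in 70 members (66.0%), beside 26.9%, 54.9% and 70.1% in these sets. Median GC content was 60.3% in the members and 51.3%, 58.3% and 60.7% in the others in the same order. The difference in median ratio between members and other lncRNAs was 0.45 with all measured lncRNAs and 0.15 with those of a mean of at least 10.

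**Figure D3:**
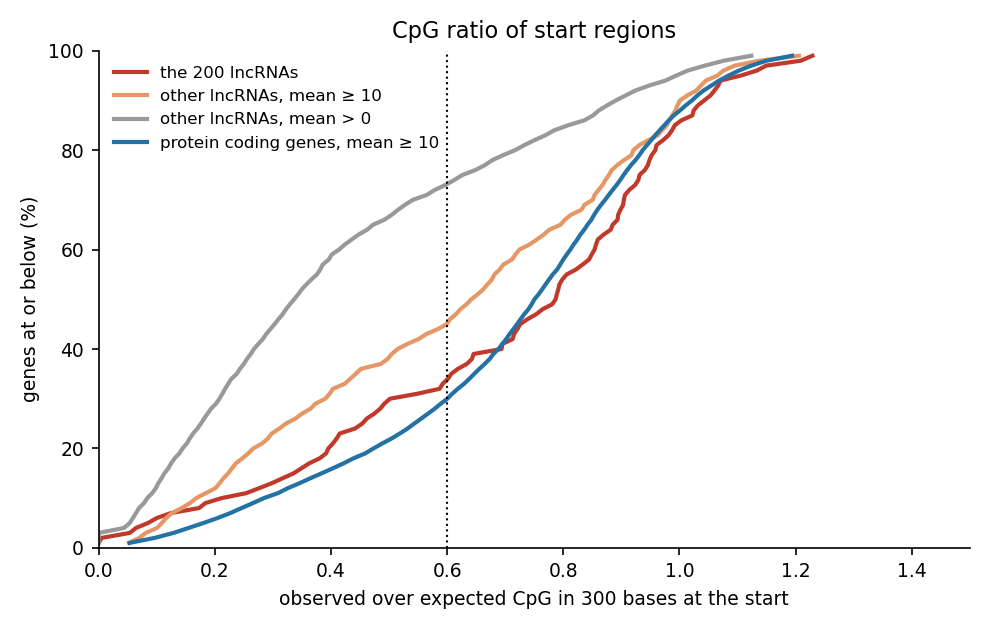
Share of genes (y, percent) with an observed over expected CpG ratio at or below the value on x, in 300 bases around the RefSeq start, for the 200 lncRNAs with a start region (106), 2 sets of other lncRNAs and protein coding genes. The dotted line marks 0.6. The members had a median of 0.79, beside 0.75 in protein coding genes and 0.64 and 0.34 in the sets of other lncRNAs, and their lowest few percent overlapped those of the other lncRNAs.

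All 14 snoRNA hosts with a matched start had a ratio of at least 0.6, between 0.64 in AI506816 and 1.26 in Snhg5, with a median of 0.92. Not every abundant lncRNA had such a start. Gm30948 (mean 1372), A830082N09Rik and Gm16973 had no CpG in the 300 bases, and EU599041 had a ratio of 0.18. Members at or above 0.6 had a median of 109.5 per kilobase and the 36 below it 105.1. The 5′ terminal oligopyrimidine messages of ribosomal proteins begin with a run of pyrimidines (C or T). A looser measure was used here, an uninterrupted run of at least 8 pyrimidines anywhere within 20 bases on either side of the start. Whether a run began at the first base was not tested. Such a run was found in 20 of 106 members (18.9%). All 32851 mouse start regions of the table had it in 16.05%. Among the 14 hosts it was found in 4, namely Snhg1, 1810032O08Rik, 2410006H16Rik and Snhg12. The letters TATAA on the transcribed strand, 45 to 16 bases before the start, were found in 5 members (4.72%, beside 3.89% of all start regions), which were 1110038B12Rik, Snhg5, Gm43305, 2610035D17Rik and Snhg12.

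A coding or noncoding gene on the other strand started within 1000 bases upstream of 34 members (17%) and ran away from them. Starts were the annotated 5′ ends of genes, and opposed genes that started inside the member were not counted. The share was 11.1% in the other lncRNAs with a mean above 0 and 19.1% in those with a mean of at least 10, so its order relative to the members changed with the filter. The distance between both starts ran between 23 and 427 bases, with a median of 146. Of these 34 neighbours 32 were protein coding. Per kilobase, the lncRNA had a median of 68.7 and the coding partner 489, and the partner was higher in 31 of 32 pairs.

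**Figure D4:**
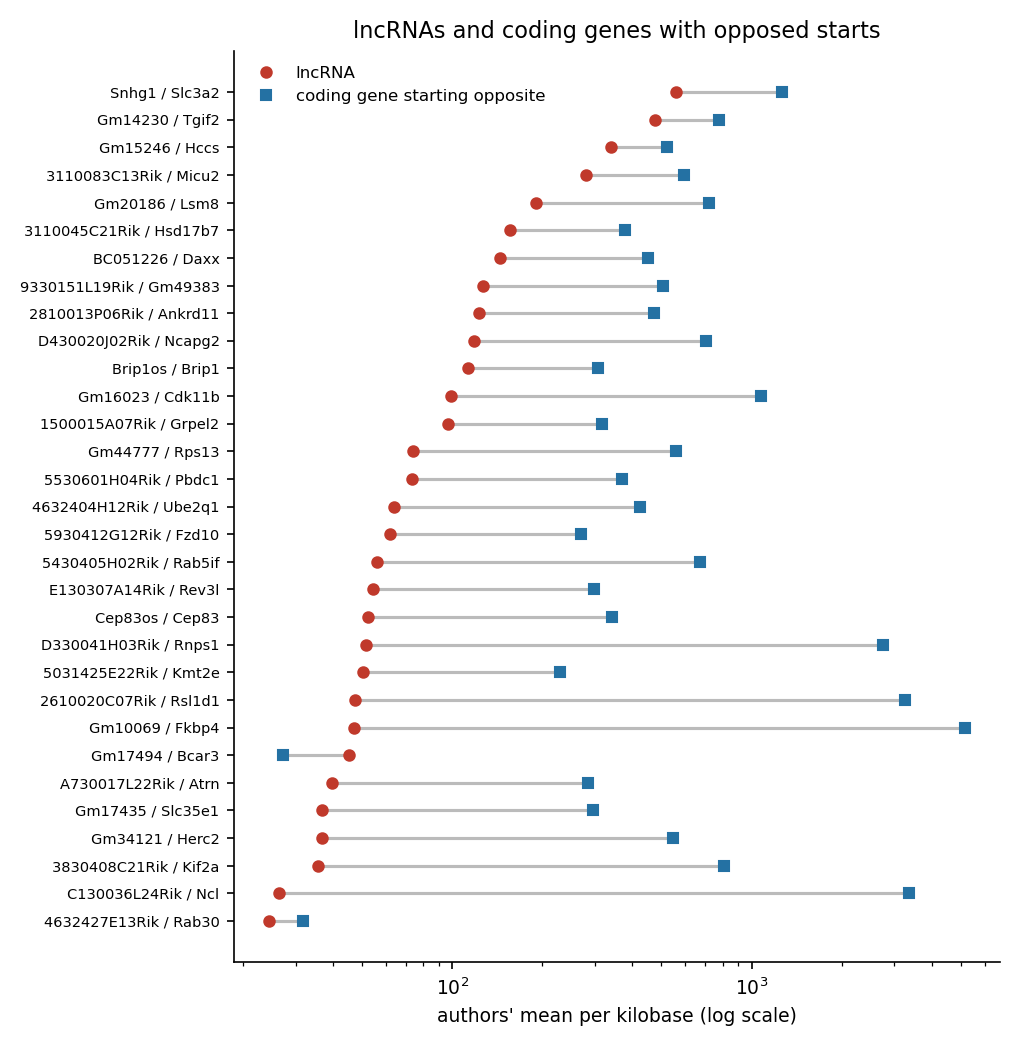
Authors' mean per kilobase (x, log scale) of 31 lncRNAs (circles) and their opposed protein coding genes (squares), 1 pair per row, ordered by the lncRNA. Each coding gene starts within 1000 bases upstream on the other strand. The coding gene was higher in every plotted pair but Gm17494 and Bcar3, and the widest gap was between C130036L24Rik at 26.5 and Ncl at 3348.

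Of the 10 such members with the highest mean, 9 are given. Snhg1 had 559.9 per kilobase, against 1262 for Slc3a2, the heavy chain of amino acid transporters, whose start lies 106 bases away. Brip1os had 112.8, against 307 for Brip1, a DNA repair helicase. 5530601H04Rik and Pbdc1 had 73.2 and 369.6, and Gm14230 and Tgif2, a homeodomain repressor, had 476 and 778. In these 4 pairs the coding gene was the higher. E130307A14Rik had 54.4, against 297 for Rev3l, the catalytic subunit of a translesion DNA polymerase. Gm17494 was the exception, with 45.1 against 27.3 for Bcar3. 4632404H12Rik had 64.1, against 425 for Ube2q1, a ubiquitin-conjugating enzyme. The remaining 2, Neat1 and 5430416N02Rik, faced the noncoding Frmd8os and Gm42690, whose means were 2.98 and 22.1.

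Exons of 71 members (35.5%) overlapped an exon on the other strand, beside 34.7% of the other lncRNAs with a mean above 0 and 39.9% of those with a mean of at least 10. In 45 cases the opposite gene was protein coding, and it was higher per kilobase in 28 of them. The libraries were stranded, but no source names the strand setting used in counting, so reads of such pairs cannot be told apart with certainty. B230354K17Rik had 545 per kilobase, against 9.05 for Spats1 opposite it. Rab10os had 128, against 1136 for Rab10, a small GTPase.

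Sequence shared with other genes limits how surely a level belongs to a member. More than 50% of the 31-mers were also in transcripts of another gene for 34 members (17%), beside 4.00% of the other lncRNAs with a mean above 0 and 7.26% of those with a mean of at least 10. These 34 held 5.35% of all lncRNA counts, and 33 of them had no matched start region. At the other extreme, 33 members shared none and 101 shared less than 5%. Malat1 shared 2.39%. The levels of the 34 are therefore uncertain. Only the transcribed strand was compared, so sequence in common with a gene on the other strand was not counted. This holds for Gm42418, which shared none but lies opposite an rRNA gene, so a low share does not make a level certain.

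**Figure D5:**
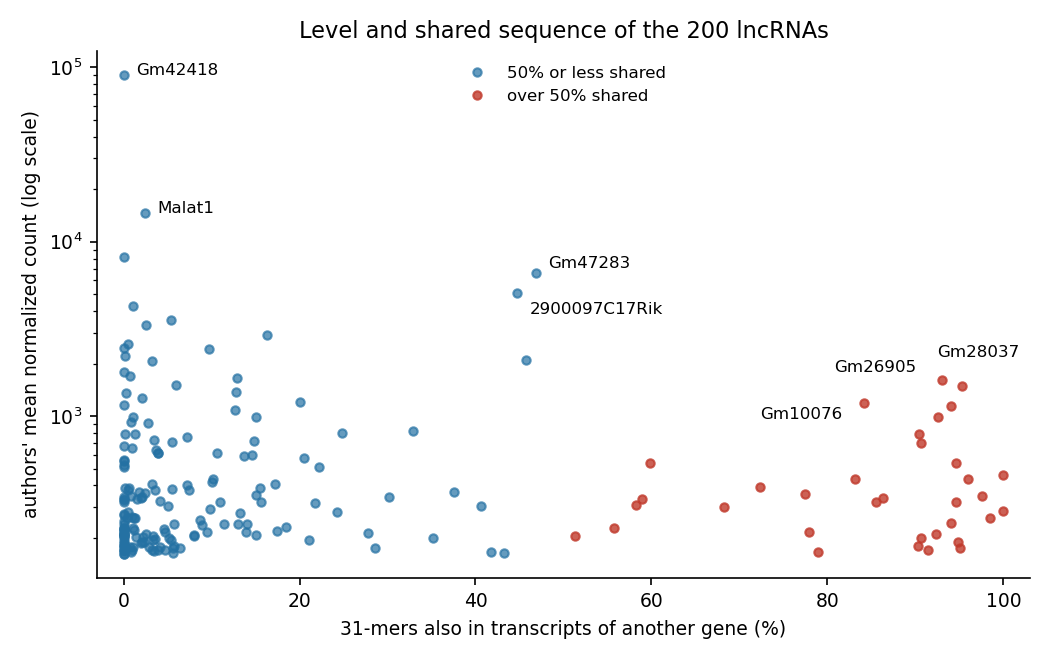
Authors' mean normalized count (y, log scale) against the percentage of a member's 31-mers that also occur in transcripts of another gene (x), 1 point per gene for the 200 lncRNAs. Of the 34 members above 50% (red), Gm26905 had the highest mean, at 1609. Gm42418 shared none on the transcribed strand, the only strand compared.

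The members also shared sequence with each other. Linking members whose shorter transcript set had at least 50% of its 31-mers in the other gave 5 groups with 17 genes. The first held Gm48754, Gm47486, Gm48764, Gm47739, Gm48799 and AC136710.2 on 4 chromosomes, with 63.3% to 79.4% shared between pairs and means of 175 to 536. The second held Gm26905, Gm48765, Gm47578, Gm47106 and Gm47221, also on 4 chromosomes, with 51.5% to 81.8% shared and means of 199.9 to 1609. None of these 11 genes had a matched start region. The other 3 groups were pairs, Gm47551 with Ftx, Gm47031 with Gm45090, and Gm29084 with Gm48161. The link of Gm47551 with Ftx rests on 86 31-mers, 63.7% of those of the 165-base Gm47551. Ftx shared only 9.44% of its 31-mers with all other genes.

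Another kind of sharing was with protein coding genes. Gm28037, with a mean of 1484, lies with all of its exon bases within exons of other genes on the same strand. Of these, Rpl24, a ribosomal protein gene, overlapped it most. Gm28037 shared 95.4% of its 31-mers with other genes, and 78.3% with Rpl24. Gm10076 shared 84.2%, with Rpl41, another ribosomal protein gene, as its main partner. Gm49207 shared 83.1% (main partner Ahsa1), Gm43079 94.9% (Acad9) and Gm36995 92.3% (Ccdc22). In 7 members the main partner was a Zfp zinc finger gene with at least 10% of 31-mers shared in all. They were Gm46430 (1199.5), EU599041 (818), Gm5165 (797), Gm7967 (717), BC002059 (593), Gm10479 (332) and Gm47469 (166). Gm46430 and Gm47469, both on chromosome 13, shared most with the same gene, Zfp825. C4a, at rank 198, is a copy of the complement gene C4b.

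By chromosome, the highest counts, picked after they were seen, were 18 members on chromosome 12 and 18 on chromosome 13, which is 9% each. They include genes of the first group above, Gm48764 on chromosome 12 and Gm48754, Gm47486 and Gm48799 on chromosome 13. Chromosome 12 had 5.05% of the other lncRNAs with a mean above 0 and 3.42% of protein coding genes, and chromosome 13 had 6.01% and 3.58%. Chromosome 5 had 8% of the members, beside 6.71% and 6.21%, and chromosome 17 had 7%, beside 4.81% and 5.03%. These shares were not compared with lncRNAs of a mean of at least 10. Chromosome X had 10 members, of which Firre was highest, and chromosome Y had Gm47283 alone.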

How the data were processed

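The authors made stranded polyA libraries (TruSeq) from germ cells lifted off the feeder. Per the labels' processing notes, STAR, Salmon and DESeq2 were used with GRCm38, with versions not given in the sources used here. Salmon divides ambiguous reads among transcripts by a statistical model. The deposited table gives 1 mean normalized count per gene, a signal pooled over all libraries and named here as the authors' mean. It also holds the authors' log2 fold changes, standard errors, Wald statistics, p-values and adjusted p-values for 3 comparisons with the control, which were not used. It has 0 columns of values per sample, so no test was made.

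Genes were matched by ID to GENCODE release M21 (GRCm38; 54346 of 54432 rows, 10028 of 10041 lncRNAs) listed genes by symbol or RefSeq synonym, and start regions by position and symbol to RefSeq GRCm38.p6, within 1000 bases. Scripts used Python 3.11.15, pandas 2.3.3 and NumPy 2.4.6, and the word counting was checked on simulated data. The 31-mers were compared on the transcribed strand over all M21 transcripts. The members and lists were chosen with earlier results of these data known. Named genes were the 20 highest members, 5 genes on each side of the limit, members of the lists, and the 10 highest members with an opposed start, of which 1 pair is not reported here or plotted. Other genes named for length, sequence or level were chosen after their values were seen. Alternatives were ranking per kilobase, other set sizes, keeping imprinted transcripts, leaving out repeated symbols, other filters and a shorter start window, and, chosen after seeing the data, leaving out the rRNA-adjacent pair or members with shared sequence.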

Additional observations from a re-analysis of the deposited data

How the results depend on the processing

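The 200 lncRNAs held 76.6% of lncRNA counts. This share was 71.6% when genes were ranked per kilobase, 69.6% for the top 100, 84.1% for the top 400 and 78.6% with imprinted transcripts kept, and it stayed at 76.6% with repeated symbols left out. In alternatives chosen after seeing the data it was 65.2% without Gm42418 and Gm26917 and 75.3% without members with over 50% of their 31-mers shared, in both cases with those genes left out of the total too. The listed snoRNA hosts held 3.60% of lncRNA counts, 5.16% with the most abundant lncRNA left out of the total and, chosen after seeing the data, 5.37% with Gm42418 and Gm26917 left out and 3.50% with hosts matched by symbol alone. The difference in median CpG ratio of 0.450 was 0.145 beside lncRNAs with a mean of at least 10, 0.497 without a filter and 0.448 in the last 150 bases. The ratio of median exon lengths of 2.60 was 1.69, 3.14 and, without members with shared sequence, 2.94. The cause of these shifts was not tested. No paired analysis was possible because the deposited table holds no values per library, and for the same reason the replicate block and leaving out each replicate in turn were not run. A single pooled mean gives no error for any level, and the table does not give the depth of each library.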
